A study of Homo sapiens with 24 samples.

Results

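The genes described are 10 regulators of the G1 phase of the cell cycle, chosen by name: the kinases CDK4 and CDK6, the D cyclins CCND1, CCND2 and CCND3, the CDK inhibitors CDKN1B (p27), CDKN1C (p57), CDKN2C (p18) and CDKN2D (p19), and the retinoblastoma gene RB1. No probe set carried the name CDKN2C in the annotation used, so CDKN2C was not analysed here. The other 9 had a probe set and all 9 passed the filter on low values, among 10963 genes tested. Where a gene had several probe sets, the one with the highest mean over the 24 arrays was used, and levels are its log2 intensity. The arrays came from 2 human leukaemia cell lines with a rearranged MLL gene. MV4-11 carries MLL-AF4, is described in the labels as a biphenotypic B and myelomonocytic leukaemia, and was grown in IMDM with 10% FBS. MOLM-13 carries MLL-AF9 and was grown in RPMI with 10% FBS. Cells received 3 uM EPZ004777, an inhibitor of the histone methyltransferase DOT1L, or the vehicle, 0.1% DMSO. MV4-11 was sampled on days 2, 4 and 6 and MOLM-13 on day 6, and each of these 8 groups of line, day and treatment had 3 arrays, which the labels call biological replicates.

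D cyclins are made in response to growth signals and bind CDK4 or CDK6, and the active kinases phosphorylate the RB1 protein, which then releases E2F transcription factors that switch on genes for DNA synthesis. INK4 proteins, among them CDKN2C and CDKN2D, bind CDK4 and CDK6 directly, whereas CIP/KIP proteins, among them CDKN1B and CDKN1C, bind cyclin-kinase complexes and stop the kinases of late G1 and S phase. Fusions of MLL recruit DOT1L to their target genes, and CDK6 is a known target of these fusions in acute leukaemia, where it is the prominent G1 kinase of the blast cells.

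The labels do not say how the replicates were made, so the p-values measure the spread between these arrays. Array quality moved with the groups. The log2 difference between 3′ and 5′ control probe sets of ACTB and GAPDH, a common measure of RNA integrity and labelling, was 2.10 to 2.84 in treated MOLM-13, against 0.95 to 1.15 in vehicle MOLM-13. It was 0.83, 0.86 and 1.91 in treated MV4-11 on day 6, against 0.57 to 0.58 in vehicle cells, and lay between 0.53 and 0.82 in the 12 arrays of days 2 and 4. The vehicle arrays of day 4 also stood apart in culture state: the mean log2 level of 8 interferon-stimulated genes was 4.19 to 4.33 in treated cells and 7.97 to 8.74 in vehicle cells, and on day 6 it was 7.51 in vehicle replicate 1. The mean of 6 stress genes was lower in treated than in vehicle cells in each line and day, without overlap. Treated MV4-11 reached at most 7.40, 7.25 and 7.19 on days 2, 4 and 6. Vehicle MV4-11 lay at 8.03, 9.67 and 7.89 or above. In MOLM-13 it was at most 7.15 in treated cells and at least 8.29 in vehicle cells. The part of this difference in the results was not tested. All 7 named myeloid markers passed the filter, and their mean level was 8.404 to 8.97 in treated MV4-11 and 7.99 to 8.48 in vehicle MV4-11, and 10.7 to 10.8 in treated MOLM-13 and 9.59 to 9.64 in vehicle MOLM-13. Of 5 named B cell markers, CD79B, PAX5 and IGLL1 passed the filter and CD79A and MS4A1 did not reach it. IGLL1 changed by 1.04 in MV4-11 on day 6 and by -3.67 in MOLM-13. CD79B and PAX5 were not called on day 6, at 0.20 and -0.14 in MV4-11 and at 0.33 and 0.09 in MOLM-13. Of 5 named T and NK cell markers, CD3D and NCAM1 passed the filter, while CD3E, CD2 and CD7 did not reach it. On day 6, CD3D changed by 2.74 in MOLM-13 and was not called in MV4-11, at 0.15. NCAM1 changed by 0.79 in MV4-11 and by 0.73 in MOLM-13. The part of these markers in the results was not tested.

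Of the 9 genes, CDKN1C rose strongly in treated MV4-11, while CCND1, CCND3, CDKN2D, CDK6, CDK4 and CDKN1B were lower by day 6. In MOLM-13 the genes that changed all fell in the probe sets used, but not every fall held under the alternatives below. A gene is said to have changed where limma's adjusted p, taken over all 10963 genes, was under 0.05. On day 2 in MV4-11, 2 of the 9 had changed, 1 up and 1 down, where 12.5% of all genes tested had (8.83% up, 3.69% down). On day 4, 5 of the 9 had changed (1 up, 4 down), against 46.2% of all genes (25.2% up, 21% down). On day 6, 7 of the 9 had changed (1 up, 6 down), against 62% of all genes (33.6% up, 28.4% down). In MOLM-13 on day 6, 7 of the 9 had changed, all down, against 65.8% (29.3% up, 36.5% down). With the 3′ to 5′ difference as a covariate in the fit, 4 of the 9 were called there, beside 4338 of the 10963 genes. The CDK4 and CCND3 calls were among those lost, and the direction for CCND2 differed with the probe set. The members were chosen with results known, so nothing is read from these counts. The median change of the 9 genes was -0.36 in MV4-11 on day 6 and -0.36 in MOLM-13, where the median of all genes was 0.04 and -0.03. In whole cultures, fewer cells of one kind and less RNA per cell cannot be told apart.

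**Figure D1:**
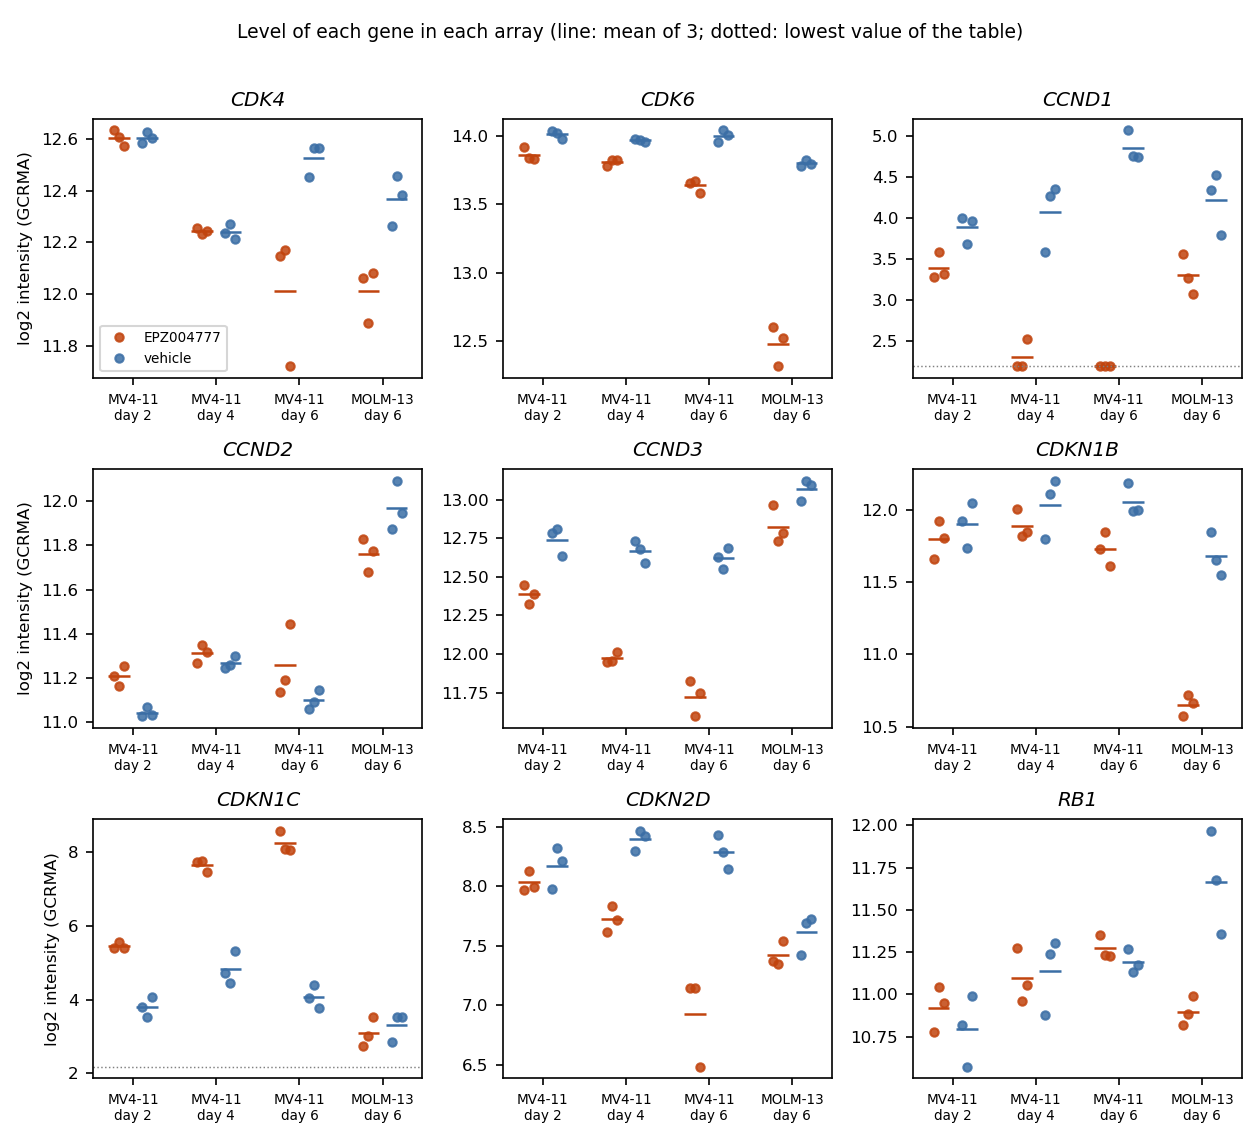
Level of each of the 9 measured genes (log2 intensity) in each of the 24 arrays, with EPZ004777 to the left of vehicle for each line and day, the mean of 3 as a line, and the table's lowest value, 2.19, dotted for CCND1 and CDKN1C. CDKN1C separates the groups of MV4-11 on every day and stays low in MOLM-13, and CDK6 is lowest in treated MOLM-13.

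CDK6, the kinase that MLL fusions are known to drive, fell in both lines by day 6. The RefSeq table of GRCh38.p14 gives 2 transcription starts for CDK6 on chromosome 7, minus strand. The 250 bases before each are shown because CDK6 is the fusion target among these genes. The first window lies just upstream of the annotated gene (chr7:92836574-92836823) and the second lies within it (chr7:92833960-92834209).
CDK6 first start: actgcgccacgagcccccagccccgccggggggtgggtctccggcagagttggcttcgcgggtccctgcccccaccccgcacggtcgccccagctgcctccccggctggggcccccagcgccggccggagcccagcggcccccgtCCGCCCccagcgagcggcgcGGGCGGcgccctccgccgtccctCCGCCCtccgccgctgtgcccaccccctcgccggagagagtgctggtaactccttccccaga
CDK6 second start: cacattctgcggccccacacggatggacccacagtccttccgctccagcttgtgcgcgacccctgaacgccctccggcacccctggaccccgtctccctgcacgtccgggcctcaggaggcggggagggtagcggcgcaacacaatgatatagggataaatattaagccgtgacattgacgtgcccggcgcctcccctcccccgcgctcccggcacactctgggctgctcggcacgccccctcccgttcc
Capitals mark matches to the GC box GGGCGG on either strand (CCGCCC is its reverse), of which the first window held 3 and the second 0. Among 35116 RefSeq promoter windows of 250 bases, 42.6% held a GC box. Neither window held the E-box CACGTG, the CCAAT box, an E2F site (TTTCGCGC, TTTGGCGC, TTTCCCGC or TTTGCCGC) or a CHR element (TTTGAA or TTCGAA), which 6.34%, 32%, 2.79% and 14.3% of all windows held on either strand. These are matches of letters only, and which start the cells use was not measured.

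In treated MV4-11, CDK6 read 13.92, 13.84 and 13.83 on day 2, against 14.04, 14.02 and 13.98 in vehicle cells. On day 6 it read 13.66, 13.67 and 13.58 in treated cells and 13.96, 14.04 and 14.01 in vehicle cells. The treated arrays lay below the vehicle arrays without overlap on all 3 days, but the gap was small. The change was -0.15 on day 2 (SE 0.06, limma adjusted p = 0.105), -0.16 on day 4 (SE 0.06, adjusted p = 0.029) and -0.36 on day 6 (SE 0.06, adjusted p = 2.01e-05), the last a 1.29-fold lower level. The call on day 4 was lost without any 1 of its 6 arrays (adjusted p 0.0521 to 0.0876). In treated MOLM-13, CDK6 read 12.61, 12.32 and 12.52, against 13.78, 13.83 and 13.80 in vehicle cells, a 2.497-fold lower level (log2 change -1.32, SE 0.06, adjusted p = 3.86e-13). It remained lower when the 3′ to 5′ difference entered the fit as a covariate, at -1.10 (adjusted p = 2.34e-08).

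The size of the CDK6 change in MV4-11 depended on the probe set. Of the 6 CDK6 probe sets that passed the filter, all 6 fell on day 4 and all 6 on day 6, and the set used here, 224847_at, gave the smallest of these falls. The other 5 gave changes of -2.30 to -0.77 in MV4-11 on day 6, and all 6 gave -2.18 to -0.98 in MOLM-13. In the set used, the change in MOLM-13 minus that in MV4-11 on day 6 was -0.96 on the log2 scale (95% interval -1.13 to -0.78, adjusted p = 1.79e-08). The sets 224848_at and 224851_at gave differences of -0.81 (adjusted p = 6.4e-05) and -0.34 (adjusted p = 0.0245), and 243000_at and 235287_at gave -0.06 (adjusted p = 0.83) and 0.12 (adjusted p = 0.754). The set 207143_at gave the opposite, 1.01 (adjusted p = 0.0173), and the mean of all CDK6 probe sets gave -0.10 (adjusted p = 0.379). That CDK6 fell in both lines was common to these probe sets, whereas a larger fall in MOLM-13 was not. The larger fall was called in the brightest sets, 224847_at, 224851_at and 224848_at (mean log2 13.70, 12.75 and 11.01), and not in the dimmer ones (6.12 to 7.89).

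**Figure D2:**
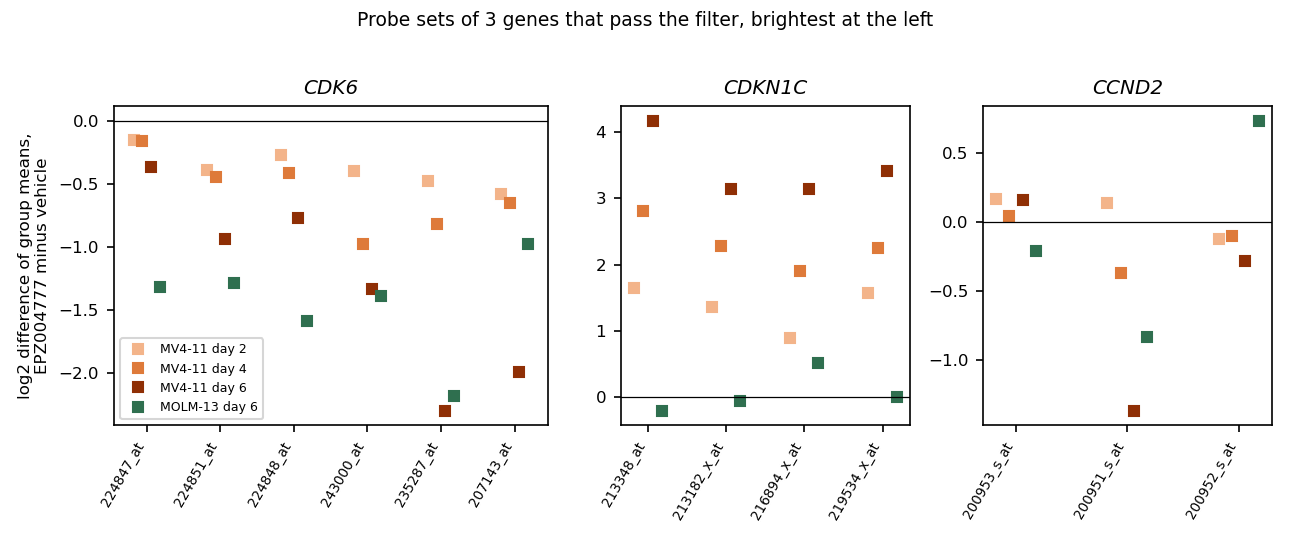
Difference of group means, EPZ004777 minus vehicle (log2), for every probe set of CDK6, CDKN1C and CCND2 that passed the filter, ordered by mean intensity from the left, with colours for line and day. All 6 CDK6 sets lie below 0 in every comparison, all 4 CDKN1C sets rise over the days in MV4-11, and the 3 CCND2 sets differ in direction.

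CDK4, the partner of the D cyclins in many other tissues, passed the test in MV4-11 on day 6 and not on days 2 and 4. Its promoter is shown because CDK4 is known to be bound by MYC through E-boxes near its start, and the window (chr12:57752311-57752560, minus strand, GRCh38.p14, RefSeq) holds 3 of them.
CDK4: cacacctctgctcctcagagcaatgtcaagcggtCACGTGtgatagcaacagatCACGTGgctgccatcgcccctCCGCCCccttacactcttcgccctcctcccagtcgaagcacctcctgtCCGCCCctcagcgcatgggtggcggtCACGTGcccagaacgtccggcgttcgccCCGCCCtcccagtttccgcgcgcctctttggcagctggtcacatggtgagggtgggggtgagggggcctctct
Capitals mark the 3 E-boxes CACGTG and 3 GC boxes (GGGCGG or CCGCCC). In treated MV4-11, CDK4 read 12.15, 12.17 and 11.72 on day 6, against 12.45, 12.56 and 12.56 in vehicle cells, a change of -0.51 (SE 0.09, adjusted p = 4.36e-05). Treated replicate 3, the array with the highest 3′ to 5′ difference of its group, was the lowest of the 6, and without it the change was -0.37 (adjusted p = 5.02e-05). On days 2 and 4 the change was 0.00 on both days (SE 0.09), with 95% intervals of -0.18 to 0.18 and -0.18 to 0.19. The vehicle arrays of day 4, those with the high interferon-stimulated genes, differed from the mean of days 2 and 6 by -0.33 in CDK4 (adjusted p = 0.00338). Against the vehicle arrays of days 2 and 6, the change on day 4 was -0.32 (adjusted p = 0.0012). In MOLM-13, CDK4 read 12.06, 11.89 and 12.08 in treated cells and 12.27, 12.46 and 12.38 in vehicle cells, a change of -0.36 (adjusted p = 0.00141). With the 3′ to 5′ difference as a covariate it turned to 0.14 (adjusted p = 0.21), so the fall of CDK4 in MOLM-13 cannot be told apart from array quality.

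CCND3, the D cyclin known for its part in blood cells, fell in treated MV4-11 on all 3 days. It read 12.45, 12.33 and 12.39 on day 2 in treated cells, against 12.78, 12.81 and 12.64 in vehicle cells. On day 6 it read 11.82, 11.60 and 11.75 in treated cells and 12.63, 12.55 and 12.69 in vehicle cells. The groups did not overlap on any of the 3 days. The change was -0.35 on day 2 (SE 0.07, adjusted p = 0.00247), -0.69 on day 4 (adjusted p = 1.81e-07) and -0.90 on day 6 (adjusted p = 2.49e-09), which is 1.87-fold lower. With the mean of both CCND3 probe sets, of which the other was below the filter, the day 2 call was lost (-0.18, adjusted p = 0.456). The change on day 6 minus that on day 2 was -0.55 (SE 0.10, adjusted p = 0.000338). In MOLM-13 the change was -0.24 (SE 0.07, adjusted p = 0.00588), which exceeded that in MV4-11 by 0.66 (SE 0.10, adjusted p = 2.65e-05). The call in MOLM-13 was lost with the 3′ to 5′ difference as a covariate (-0.16, adjusted p = 0.361) and with quantile normalization repeated (-0.05, adjusted p = 0.568), and with the mean of both probe sets the change turned to 0.22 (adjusted p = 0.138).

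CCND2, the D cyclin whose gene is also active in myeloid cells, moved little in the probe set used, 200953_s_at. In treated MV4-11 it read 11.13, 11.19 and 11.44 on day 6, against 11.06, 11.09 and 11.14 in vehicle cells, and the ranges overlapped (change 0.16, SE 0.07, 95% interval 0.01 to 0.31, adjusted p = 0.0565). In treated MOLM-13 it read 11.83, 11.68 and 11.77, against 11.87, 12.09 and 11.95 in vehicle cells, a change of -0.21 (SE 0.07, adjusted p = 0.0135). The call did not hold when replicate 2 of either group was left out (adjusted p 0.0658 for the treated one, 0.092 for the vehicle one). The other probe sets disagreed: 200951_s_at gave -1.37 in MV4-11 on day 6 (adjusted p = 1.67e-07) and -0.83 in MOLM-13 (adjusted p = 6.34e-05), and 200952_s_at gave 0.73 in MOLM-13 (adjusted p = 0.00201). The direction for CCND2 therefore differed with the probe set, and no direction is given.

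CCND1, the D cyclin of many epithelial tumours, was near the bottom of the scale in these cells. It reached log2 4 in 7 of the 24 arrays, all of them vehicle arrays, so it passed the filter only through the groups where it was high. Without the filter it was still called on days 4 and 6 and in MOLM-13. In treated MV4-11 it read 3.28, 3.58 and 3.32 on day 2, against 4.00, 3.69 and 3.97 in vehicle cells. On day 6 it stood at the table's lowest value, 2.19, in all 3 treated arrays, against 5.07, 4.76 and 4.74 in vehicle cells. The change was -0.49 on day 2 (SE 0.19, adjusted p = 0.112), -1.77 on day 4 (adjusted p = 3.45e-07) and -2.67 on day 6 (adjusted p = 6.03e-10). The last is a 6.36-fold lower value. Its size rests on the lowest value and on the vehicle arrays that let the gene pass, so it is not read closely. The other CCND1 probe set was below the filter and was not tested. Its group means differed by -0.11 in MV4-11 on day 6 and by 0.15 in MOLM-13. In vehicle MV4-11, CCND1 was itself 0.97 higher on day 6 than on day 2 (SE 0.19, adjusted p = 0.0166). Of the 9 genes, 1 passed in that comparison, where 1.12% of all genes did (0.784% up). The call was lost without day 2 vehicle replicate 2, day 6 vehicle replicate 1 or day 6 vehicle replicate 2 (adjusted p 0.05003 to 0.137). In MOLM-13 it read 3.56, 3.26 and 3.07 in treated cells and 4.34, 4.52 and 3.79 in vehicle cells, a change of -0.92 (SE 0.19, adjusted p = 0.000335), and with the 3′ to 5′ difference as a covariate -0.83 (adjusted p = 0.083).

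CDKN1C, an inhibitor of cyclin-kinase complexes that is imprinted and known for its part in keeping blood stem cells out of cycle, showed the largest change of the 9 genes. It read 5.40, 5.58 and 5.41 in treated MV4-11 on day 2, against 3.81, 3.53 and 4.08 in vehicle cells. On day 4 it read 7.73, 7.77 and 7.47 in treated cells and 4.74, 4.46 and 5.34 in vehicle cells, and on day 6 it read 8.59, 8.09 and 8.06 in treated cells and 4.06, 4.41 and 3.77 in vehicle cells. No treated array overlapped the vehicle arrays of its day. The rise was 1.65 on day 2 (SE 0.24, adjusted p = 0.000107), 2.81 on day 4 (adjusted p = 1.4e-08) and 4.17 on day 6 (SE 0.24, 95% interval 3.66 to 4.68, adjusted p = 2.65e-11), a 17.99-fold higher level. The vehicle values of days 2 and 6 lie around the filter value of log2 4, and the size of this fold rests on them. On day 6 it ranked 24 of 10963 genes from the highest change. The rise was larger on day 6 than on day 2 by 2.52 (SE 0.34, adjusted p = 1.36e-05). The 3 other probe sets that passed the filter rose by 3.13 to 3.41 on day 6, a smaller size in the same direction. Of these, 216894_x_at and 219534_x_at had means above log2 4 only in treated MV4-11 on days 4 and 6. They passed mainly through groups where they were high, so they are no independent support. The set 219533_at stood at the table's lowest value in every group.

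In MOLM-13, CDKN1C stayed near the bottom of the scale, at 2.75, 3.02 and 3.53 in treated cells and 2.84, 3.53 and 3.53 in vehicle cells. The change was -0.20 (SE 0.24, 95% interval -0.71 to 0.31, adjusted p = 0.487), and none of its 4 probe sets that passed the filter changed there (-0.20 to 0.52). The change in MOLM-13 minus that in MV4-11 was -4.37 (SE 0.34, adjusted p = 5.07e-09), and it was -4.37 to -2.62 over the 4 probe sets. Of these, 216894_x_at averaged 2.86 in treated and 2.35 in vehicle MOLM-13, and 219534_x_at averaged 2.19 in both. These values lie near the table's lowest, and both sets passed mainly through treated MV4-11. They are therefore no independent support for the lack of change in MOLM-13 or for the difference between lines.

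CDKN1B, the p27 inhibitor that binds cyclin E and CDK2, fell in MOLM-13. Its promoter is shown because it is the CIP/KIP gene with an entry in the promoter table (chr12:12717118-12717367, plus strand, GRCh38.p14, RefSeq).
CDKN1B: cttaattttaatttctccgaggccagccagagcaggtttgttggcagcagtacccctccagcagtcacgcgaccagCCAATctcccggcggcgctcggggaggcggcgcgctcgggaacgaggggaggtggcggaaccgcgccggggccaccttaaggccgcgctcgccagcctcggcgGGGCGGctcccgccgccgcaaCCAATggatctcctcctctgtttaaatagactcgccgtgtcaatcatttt
Capitals mark 2 CCAAT boxes and 1 GC box. In treated MOLM-13 it read 10.57, 10.72 and 10.66, against 11.85, 11.65 and 11.55 in vehicle cells, a 2.04-fold lower level (change -1.03, SE 0.11, adjusted p = 1.06e-07). With the 3′ to 5′ difference as a covariate the change was -0.98 (adjusted p = 0.00114). In treated MV4-11 on day 6 it read 11.73, 11.85 and 11.61, against 11.99 to 12.18 in the 3 vehicle arrays, a change of -0.33 (SE 0.11, adjusted p = 0.0142). That call was lost without treated replicate 3 (adjusted p = 0.0654), without vehicle replicate 1 (adjusted p = 0.0715) with quantile normalization repeated (-0.23, adjusted p = 0.0754) and with the covariate (-0.30, adjusted p = 0.0715). On days 2 and 4 the changes were -0.11 (adjusted p = 0.632) and -0.15 (adjusted p = 0.296), with overlapping ranges. The change in MOLM-13 minus that in MV4-11 was -0.71 (SE 0.15, adjusted p = 0.000813).

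CDKN2D, an INK4 inhibitor of CDK4 and CDK6, fell in treated MV4-11 on days 4 and 6. Its promoter is shown as that of the INK4 gene that fell (chr19:10568980-10569229, minus strand, GRCh38.p14, RefSeq).
CDKN2D: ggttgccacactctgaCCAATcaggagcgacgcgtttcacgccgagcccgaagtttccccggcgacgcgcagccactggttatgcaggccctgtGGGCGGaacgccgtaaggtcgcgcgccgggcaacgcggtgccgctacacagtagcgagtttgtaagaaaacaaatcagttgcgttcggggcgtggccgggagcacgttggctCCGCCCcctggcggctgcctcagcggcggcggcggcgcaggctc
Capitals mark 1 CCAAT box and 2 GC boxes, and neither this window nor those of CDK4 and CDKN1B held an E2F site or a CHR element. In treated MV4-11 on day 6 it read 7.15, 7.15 and 6.48, against 8.43, 8.29 and 8.14 in vehicle cells. Treated replicate 3, with the highest 3′ to 5′ difference, was the lowest, and no treated array reached the vehicle arrays. The change was -0.14 on day 2 (SE 0.14, adjusted p = 0.628), -0.68 on day 4 (adjusted p = 0.000556) and -1.36 on day 6 (adjusted p = 8.35e-08), a 2.57-fold lower level. With the 3′ to 5′ difference as a covariate it was -1.06 on day 6 (adjusted p = 2.16e-06). In MOLM-13 it read 7.37, 7.34 and 7.54 in treated cells and 7.42, 7.70 and 7.72 in vehicle cells (change -0.19, SE 0.14, 95% interval -0.49 to 0.10, adjusted p = 0.237), and the change differed from that of MV4-11 by 1.17 (SE 0.20, adjusted p = 7.15e-05).

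RB1, whose protein the D cyclin kinases phosphorylate, did not pass the test in MV4-11 on any day (changes 0.13, -0.04 and 0.08, SE 0.14). In treated MOLM-13 it read 10.82, 10.88 and 10.99, against 11.97, 11.68 and 11.35 in vehicle cells, a change of -0.77 (SE 0.14, adjusted p = 6.46e-05) and, with the 3′ to 5′ difference as a covariate, of -0.76 (adjusted p = 0.0282). The vehicle arrays were spread wider than the treated ones, but the ranges did not overlap. The other RB1 probe set that passed the filter, 211540_s_at, gave -0.91 in MV4-11 on day 6 (adjusted p = 4.67e-05) and -0.17 in MOLM-13 (adjusted p = 0.35), so the line in which RB1 fell depended on the probe set. That set averaged log2 4.63, near the filter value, against 11.12 in the set used.

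**Figure D3:**
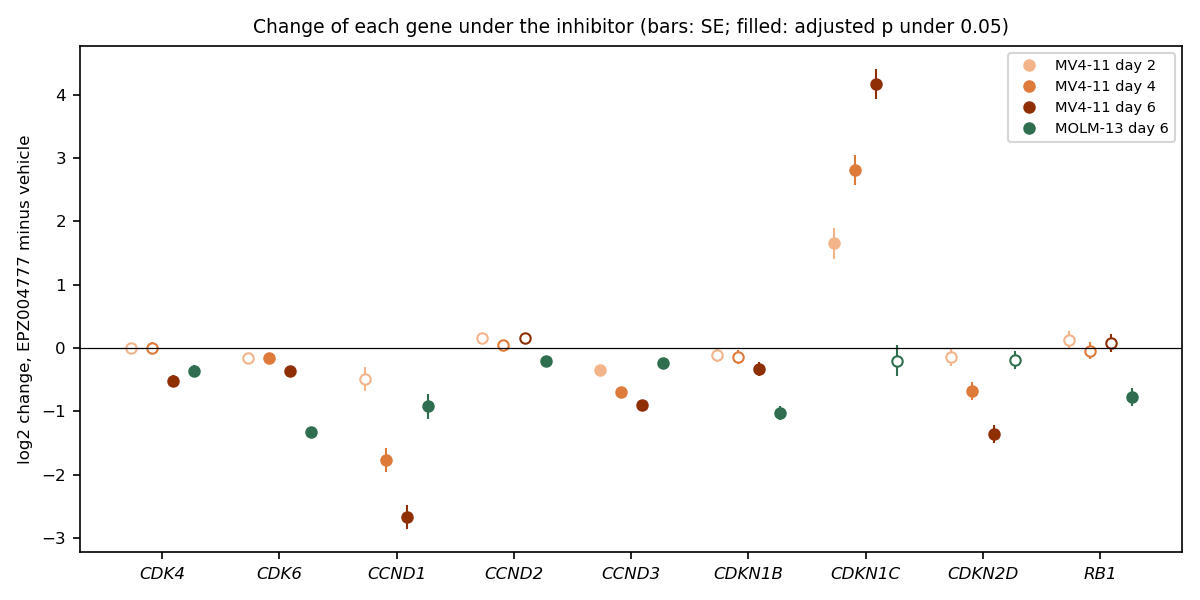
Change of each gene, EPZ004777 minus vehicle (log2, bars SE), in MV4-11 on days 2, 4 and 6 and in MOLM-13 on day 6, with filled points where limma's adjusted p was under 0.05. CDKN1C rises over the days in MV4-11 to 4.17, CCND1, CCND3 and CDKN2D fall further with the days, and CDK6, CDKN1B and RB1 fall furthest in MOLM-13 in the probe sets used, an order that other CDK6 and RB1 probe sets did not all share. All treated CCND1 values of day 6 in MV4-11 stand at the table's lowest value, and its vehicle values rose with the days.

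The change under the inhibitor was tested directly between days and between lines. Between day 6 and day 2 in MV4-11 it differed for 6 of the 9 genes (39.6% of all genes, 20.9% up), with a larger rise for CDKN1C and larger falls for CCND1, CDKN2D, CCND3, CDK4 and CDK6. The smallest of these, -0.21 for CDK6 (adjusted p = 0.0447), was lost without any 1 of the 12 arrays other than treated replicate 2 and vehicle replicate 1 of day 6 (adjusted p 0.0522 to 0.106), and with the 3′ to 5′ difference as a covariate (-0.10, adjusted p = 0.375). Between day 4 and day 2 it differed for 3 of the 9 (15% of all genes, 7.22% up), and between day 6 and day 4 for 4 of the 9 (25.7%). Of the 3 at day 4, CDKN1C (1.16, adjusted p = 0.0267) and CCND3 (-0.34, adjusted p = 0.0296) were both lost without treated replicate 1 or 2 or vehicle replicate 1 or 2 of day 4, or treated replicate 1 or 3 or vehicle replicate 3 of day 2 (adjusted p 0.0541 to 0.0858), while CCND1 (-1.28, adjusted p = 0.00297) was not. Of the 4 at day 6, only CDKN1C (1.36, adjusted p = 0.00782) was still called with the 3′ to 5′ difference as a covariate. Its treated mean was 7.66 on day 4 and 8.25 on day 6, and its vehicle mean was 4.84 on day 4 and 4.08 on day 6. The day 4 vehicle arrays stood apart from those of days 2 and 6, by 0.90 for CDKN1C and -0.33 for CDK4. With the vehicle arrays of days 2 and 6 as controls, the day 4 change was 3.71 for CDKN1C and -0.32 for CDK4. CCND1 passed the filter only through vehicle arrays. Its treated mean was 3.39, 2.30 and 2.19 on days 2, 4 and 6, the last the table's lowest value. Its vehicle mean rose over the same days, at 3.88, 4.07 and 4.86. The CCND1 differences between days therefore hold this vehicle rise as well, and they are not read closely.

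Between MOLM-13 and MV4-11 on day 6 the change differed for 8 of the 9 genes, all but CDK4, where 52% of all genes differed (32.7% in the negative direction). CDKN1C and CDKN1B changed in the more negative direction in MOLM-13, and CCND1, CDKN2D and CCND3 in the less negative one. CDK6, RB1 and CCND2 were more negative in the probe sets used, but other, dimmer probe sets gave called differences the other way (1.01 for CDK6, 0.74 for RB1, 0.54 and 1.01 for CCND2). With the mean of each gene's probe sets, 5 of the 8 genes tested differed, CCND2 in the opposite direction (0.33), and CCND1 was not tested. CDK4 and CDKN1B have 1 probe set each, so that mean is no check of them. The line, its fusion, its medium and array quality cannot be told apart in this comparison.

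Without inhibitor the lines differed as well, with 8 of the 9 genes past the threshold on day 6 (63.8% of all genes, 30.7% up and 33% down). CCND2 was 0.87 higher in vehicle MOLM-13 than in vehicle MV4-11 (SE 0.07, adjusted p = 1.37e-09), CCND3 0.45 higher (adjusted p = 2.01e-05) and RB1 0.47 higher (adjusted p = 0.00538), or -0.017 with the mean of the RB1 probe sets. The difference was -0.68 for CDKN2D (adjusted p = 0.000317), -0.77 for CDKN1C (adjusted p = 0.00901), -0.64 for CCND1 (adjusted p = 0.00726), -0.37 for CDKN1B (adjusted p = 0.00559) and -0.20 for CDK6 (adjusted p = 0.00518). For CDK6 the direction was not the same in every probe set. In 224851_at the mean was 13.32 in vehicle MOLM-13 and 12.99 in vehicle MV4-11 on day 6. The remaining CDK6 sets that passed the filter were lower in vehicle MOLM-13, like the set used. The calls for CDKN1C and CCND1 were lost when single vehicle arrays were left out, at adjusted p 0.0553 without MV4-11 replicate 2 and 0.0696 without MOLM-13 replicate 1 for CDKN1C, and 0.0644 without MOLM-13 replicate 3 for CCND1. In vehicle MV4-11, 3 of the 9 genes on day 4 stood apart from the mean of days 2 and 6 (28.6% of all genes): the difference was -0.33 for CDK4, 0.20 for CCND2 and 0.90 for CDKN1C (adjusted p = 0.00338). The CCND2 call was lost without day 4 vehicle replicate 3 (adjusted p = 0.0933).

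Ordered over the 8 groups in the probe sets used, CDK6 was highest in vehicle MV4-11 on the 3 days, where each group overlapped the next. It was lowest in treated MOLM-13 at 12.48 ± 0.15 (SD, n = 3), below every other array. In 224851_at, vehicle MOLM-13 was instead the highest group, at a mean of 13.32, above vehicle MV4-11 at 13.03, 13.20 and 12.99 on days 2, 4 and 6. In 207143_at the CDK6 mean was 5.50 in treated MOLM-13 and 4.63 in treated MV4-11 on day 6, and in 224851_at it was 12.04 and 12.05. CCND3 was highest in vehicle MOLM-13, at 13.07 ± 0.07, followed by treated MOLM-13 at 12.83 ± 0.12, which overlapped vehicle MV4-11 of day 2 at 12.74 ± 0.09, and lowest in treated MV4-11 on day 6 at 11.72 ± 0.12. CDKN1C was highest in treated MV4-11 on day 6 at 8.25 ± 0.30 and next on day 4 at 7.66 ± 0.17, without overlap, and lowest in MOLM-13, treated at 3.10 ± 0.40 and vehicle at 3.30 ± 0.40, which overlapped. CDKN2D was highest in the vehicle MV4-11 groups and lowest in treated MV4-11 on day 6 at 6.93 ± 0.38. CDKN1B differed little among the 6 MV4-11 groups, where each overlapped the next in order, and was lowest in treated MOLM-13 at 10.65 ± 0.08. RB1 was highest in vehicle MOLM-13 at 11.67 ± 0.31, and its other 7 groups each overlapped the next.

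The lists of genes around these members differed in how they moved, and their counts stand beside 33.6% of all genes higher and 28.4% lower in MV4-11 on day 6, and 29.3% higher and 36.5% lower in MOLM-13. Of 19 tested E2F targets of S phase entry, 0 had changed on day 2 (median -0.04), where 12.5% of all genes had. On day 4, 15 had fallen (median -0.35), where 21% of all genes had. On day 6 all 19 had fallen (median -0.80). The medians over all genes on days 4 and 6 were 0.01 and 0.04. In MOLM-13, 15 of the 19 had fallen (median -0.65) and 4 had not passed. CDC6, which loads the replicative helicase, changed on day 6 by -1.63 in MV4-11 (SE 0.08, adjusted p = 1.59e-12) and by -1.04 in MOLM-13 (adjusted p = 1.11e-09). CDC45, a helicase subunit, changed by -1.34 and -0.65, and ORC1, an origin recognition subunit, by -1.33 and -0.78. RRM2, a subunit of ribonucleotide reductase, changed by -0.73 in MV4-11 (adjusted p = 2.85e-10) and gave -0.10 in MOLM-13 (adjusted p = 0.0742). With the 3′ to 5′ difference as a covariate, 19 of 19 were called in MV4-11 on day 6 and 13 of 19 in MOLM-13, all lower. This and the later covariate counts in MOLM-13 stand beside 4338 of 10963 genes called there in either direction.

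Of the 6 genes of cyclin E, cyclin A and CDK2, 5 had fallen in MV4-11 on day 6 (median -0.83), and in MOLM-13 3 had risen and 2 had fallen (median 0.16). With the covariate, 1 of the 6 was called in MOLM-13, as higher, and the list's median there was -0.04. The falls of CDK2 and CCNA2 in MOLM-13 were then no longer called. CDK2, the kinase that cyclin E and cyclin A activate, changed by -0.35 in MOLM-13 and by -1.05 in MV4-11, and its change differed between the lines by 0.70 (SE 0.11, adjusted p = 2.16e-05). CCNA2, the S phase cyclin A, changed by -1.03 and -0.17, while CDC25A, the phosphatase that activates CDK2, changed by -0.98 in MV4-11 and by 0.26 in MOLM-13. CCNE2, a cyclin E, changed by -0.68 in MV4-11 and gave 0.06 in MOLM-13 (adjusted p = 0.610).

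Of the 12 E2F, DP and pocket protein genes, 1 had risen and 5 had fallen in MV4-11 on day 6 (median -0.21), and 2 had risen and 4 fallen in MOLM-13 (median -0.11). RBL2, the pocket protein p130 of resting cells, was higher by 0.45 in MV4-11 (adjusted p = 8.32e-05). TFDP1, the partner of E2F proteins, changed by -0.98 in MV4-11 and by -1.198 in MOLM-13. The repressors E2F7 and E2F8 changed by -1.19 and -0.74 in MV4-11 and did not pass in MOLM-13 (-0.17 and 0.18).

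Among the other CDK inhibitors, CDKN1A (p21), which p53 is known to induce, fell in both lines. Its change in MV4-11 was -0.31 on day 2 (adjusted p = 0.0381), -1.69 on day 4 and -2.17 on day 6 (SE 0.10, adjusted p = 4.67e-13), and in MOLM-13 it was -0.30 (adjusted p = 0.0108). On day 6 the stress list, 6 genes of the integrated stress response such as ATF3 and ASNS, averaged 7.02 to 7.19 in treated MV4-11, against 7.89 to 9.39 in vehicle cells, and its part in the CDKN1A result was not tested. CDKN2A gave -0.48 in MV4-11 on day 6 (adjusted p = 0.0185) and 0.17 in MOLM-13 (adjusted p = 0.385), where CDKN2A averaged 4.63 in treated cells and 4.46 in vehicle cells, near the filter value. Of the 3 tested inhibitors of this list, all 3 were called in MV4-11 on day 6, and 2 without treated replicate 3 or with the covariate. CDKN3, a phosphatase of CDK2, changed by -1.06 and -1.07. CDKN2B was below the filter and was not tested.

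Of 6 genes of CDK activation and chaperoning, 4 had fallen in MV4-11 on day 6 and 5 in MOLM-13 (medians -0.17 and -0.47), and without treated replicate 3 of day 6, or with the covariate, 1 of the 6 was called in MV4-11. With the covariate, 1 was higher and 4 were lower in MOLM-13. CDK7, the CDK-activating kinase, changed by -0.36 in MV4-11 and by -1.18 in MOLM-13, and its cyclin CCNH by -0.17 and -0.63. The chaperone genes HSP90AA1 and HSP90AB1 changed by -0.14 and -0.18 in MV4-11 and by -0.13 and -0.31 in MOLM-13. Of 14 genes of p27 and cyclin D turnover, 4 had risen and 7 fallen in MV4-11 on day 6, and 2 had risen and 9 fallen in MOLM-13, or 1 and 5 with the covariate. CKS1B, the cofactor with which SKP2 recognises p27, changed by -1.13 in MV4-11 and -1.63 in MOLM-13, CKS2 by -0.61 and -0.32, the ligase subunit RBX1 by -0.43 and -0.46, and the F-box gene FBXO4 by -0.68 and -0.89.

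Of 7 transcription factor genes known to act on D cyclin or p27 genes, 3 had risen and 1 had fallen in MV4-11 on day 6, and 2 had risen and 1 fallen in MOLM-13, where 62% and 65.8% of all genes were called. With the 3′ to 5′ difference as a covariate, 1 had risen and 2 had fallen in MOLM-13, and the list's median went from 0.07 to -0.09. MYC changed by -0.49 in MV4-11 (adjusted p = 0.00115) and by -1.003 in MOLM-13 (adjusted p = 3.39e-07). STAT5A and STAT5B, which carry cytokine signals, rose by 0.87 and 0.38 in MV4-11 on day 6, and in MOLM-13 STAT5B rose by 0.22 while STAT5A gave -0.06 (adjusted p = 0.656). FOXO3, a known activator of CDKN1B, rose by 0.67 in MV4-11 and gave 0.07 in MOLM-13 (adjusted p = 0.375). FOXO1, named after its values were seen, changed by 2.11 in MOLM-13 (adjusted p = 1.01e-09), where it averaged 4.77 in treated cells and 2.67 in vehicle cells, the second below the filter value, and gave 0.01 in MV4-11 on day 6.

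**Figure D4:**
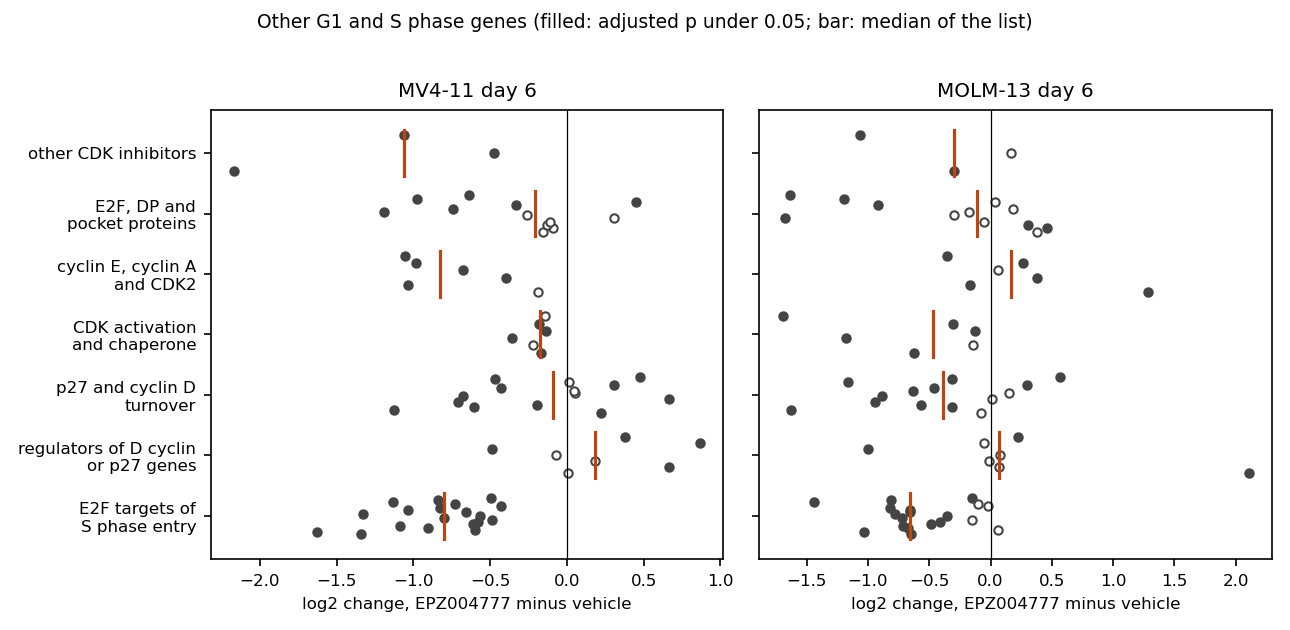
Change of each tested gene of the 7 pathway lists, EPZ004777 minus vehicle (log2), in MV4-11 on day 6 at the left and MOLM-13 on day 6 at the right, with filled points at adjusted p under 0.05 and the list's median as a bar. All 19 E2F targets lie below 0 in MV4-11, and the cyclin E, cyclin A and CDK2 list has its median at -0.83 in MV4-11 and at 0.16 in MOLM-13. With the 3′ to 5′ difference as a covariate, which is not drawn, that list's median in MOLM-13 was -0.04.

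Genes with a pattern like that of a member were named by Pearson's r over the 8 group means, among 5424 genes whose group means spanned at least 1 on the log2 scale. These are descriptions, since the means share arrays. For CDK6 the closest was VKORC1L1 (r = 0.994), then VMA21, SRGN, PSMD10 and THAP1 (r = 0.992 to 0.988). For CDKN1C the closest was SCARB2 (r = 0.991), then PIP5K1B, RGL1, RPH3AL-AS1 and LYRM9 (each r = 0.990). For CCND1 the closest was TP53RK (r = 0.977), then STARD8, DBF4, USP31 and RHEBL1 (r = 0.962 to 0.946).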

How the data were processed

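RNA of 24 cultures was measured on Affymetrix arrays, 1 array per sample, in 8 groups of 3. The deposited intensity values were made by the authors with GCRMA, per the submitters' processing notes, which adjusts background by probe sequence, quantile normalizes and summarizes per probe set. The GCRMA version was not given in the sources used here. The values ran from 4.55 to 71593 on a linear scale with the same lowest value in all 24 arrays, so levels near it, and changes to or from it, depend on the background adjustment. Scanner files were not used here, so depth was judged from this lowest value only.

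The log2 of each value was taken with a pseudocount of 0. Of 54675 probe sets, 41097 had 1 gene symbol, 1801 several and 11777 none, and 41043 of the 41097 matched the RefSeq table of GRCh38.p14 by Entrez ID. Each of 19775 genes was represented by its probe set of highest mean, and 10963 with log2 of at least 4 in at least 3 arrays were tested. limma 3.58.1 (R 4.3.3) fitted a mean per group, using every array (two-sided, adjusted by Benjamini-Hochberg over 10963 genes, threshold 0.05). An exact test of 3 against 3 cannot go below p = 0.1. The fit was tested on simulated data. The comparisons were treated against vehicle in each line and day, differences between days and lines, and vehicle groups with each other. Alternatives changed the filter, probe set, normalization, arrays in the fit, variance prior, replicate block, day 4 controls and a 3′ to 5′ covariate. Counts for the pathway lists under the covariate, without 1 array of day 6 or with other day 4 controls, and tests of other probe sets between lines, were added after seeing the data.

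The genes and lists were chosen with earlier results of these data known. Named genes are the 10 members, up to 4 tested genes per pathway list by adjusted p in MV4-11 on day 6, and the 5 genes most like CDK6, CDKN1C and CCND1. Promoter windows came from the RefSeq promoter table, which held 7 of the 10 members. Python 3.11.15, pandas 2.3.3 and matplotlib 3.10.9 read the sequences and drew the figures.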

Additional observations from a re-analysis of the deposited data

Results flagged for a closer look

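The change under EPZ004777 differed between days or lines, by limma's test of the difference itself, in 21 results (log2 scale, adjusted over all genes). Between day 4 and day 2 in MV4-11 it differed by -1.28 for CCND1, by -0.34 for CCND3 and by 1.16 for CDKN1C. Between day 6 and day 4 it differed by -0.52 for CDK4 (adjusted p = 0.00558), by -0.90 for CCND1 (adjusted p = 0.0216), by 1.36 for CDKN1C and by -0.69 for CDKN2D (adjusted p = 0.0169). The CCND1 difference was lost without treated replicate 3 or vehicle replicate 1 of day 4, or vehicle replicate 1 of day 6 (adjusted p 0.0531 to 0.0577). Between day 6 and day 2 it differed by -0.51 for CDK4, -0.21 for CDK6, -2.18 for CCND1, -0.55 for CCND3, 2.52 for CDKN1C and -1.22 for CDKN2D. For CCND1 the treated mean was 2.30 on day 4 and stood at the lowest value, 2.19, on day 6. Its vehicle mean was 3.88, 4.07 and 4.86 on days 2, 4 and 6, so its differences between days hold a rise in vehicle cells and are not read closely.

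Between MOLM-13 and MV4-11 on day 6 the change differed by -0.96 for CDK6, 1.75 for CCND1, -0.37 for CCND2, 0.66 for CCND3, -0.71 for CDKN1B, -4.37 for CDKN1C, 1.17 for CDKN2D and -0.85 for RB1. With the mean of all probe sets, the CDKN1C, CCND3 and CDKN2D differences were still called (-2.72, 0.67 and 0.58). The other CCND3 and CDKN2D sets lay below the filter, so this mean is no independent check of those genes. CDKN1B has 1 probe set, so its value of -0.71 could not change. The differences for CDK6 and RB1 were not called with that mean (-0.10 and -0.06), and that for CCND2 reversed (0.33, adjusted p = 0.00473). CCND1 was not tested with that mean. These sizes stand beside a 3′ to 5′ difference of 2.10 to 2.84 in treated MOLM-13, against 0.95 to 1.15 in vehicle MOLM-13, and its part in them was not tested beyond the covariate, under which all 8 were still called.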

How the results depend on the processing

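Of 870 values of member changes under the alternatives, 802 kept their side of the threshold with no called change of direction (24 uncalled values changed sign), 31 lost a call, 19 gained one and 18 reversed. With 1 array left out, 791 of 837 did so (30 uncalled values changed sign), 44 lost a call, 2 gained one and 0 reversed. Where no cause is given it was not tested. With the mean of all probe sets, CCND2 gave -0.39 and RB1 -0.41 in MV4-11 on day 6, and CCND2 -0.28 and RB1 -0.47 for day 6 against day 4. CCND3 gave 0.22 in MOLM-13, CCND2 0.33 for the difference between lines, and RB1 -0.017 between the vehicle groups of the lines. Members called were then 4 in MOLM-13, 1 for day 4 against day 2, 5 between lines and 0 for vehicle day 6 against day 2. With other probe sets, CCND2 200951_s_at gave -0.37 on day 4, -1.37 on day 6 and 0.54 between lines. CCND2 200952_s_at gave 0.73 in MOLM-13 and 1.01 between lines, RB1 211540_s_at -0.91 on day 6 and 0.74 between lines, and CDK6 207143_at and 235287_at 1.01 and 0.12 between lines. With the 3′ to 5′ difference as a covariate, 4338 genes and 4 members were called in MOLM-13, against 7214 and 7 without it, CDK4 gave 0.14 there, and 1 member was called for day 6 against day 4. With vehicle arrays of days 2 and 6 as controls, CDK4 gave -0.32 on day 4. With only the arrays of the comparison, 5 members were called on day 2. The stricter filter, which left 10001 genes and not CCND1, called 0 members for vehicle day 6 against day 2. With 1 array left out, members called ranged from 1 to 3 for day 4 against day 2 and from 0 to 1 for vehicle day 6 against day 2, and genes called on day 2 from 912 to 981. Quantile normalization again gave 755 higher and 503 lower genes on day 2, against 968 and 404.

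Replicate numbers did not pair the arrays (correlations of -0.26 to 0.10 in 12 same-numbered pairs). With the replicate number as a block, 1372, 5067, 6799 and 7214 called genes became 1295, 4972, 6747 and 7153 in MV4-11 on days 2, 4 and 6 and in MOLM-13. The block changed 1 member call, CDK6 between day 6 and day 2 (adjusted p = 0.0573). Probe sets below the filter (6) were not run. CCND1 and, in MOLM-13 and vehicle MV4-11, CDKN1C lie too near the lowest value for their sizes to be read closely.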
